A study of Canis lupus familiaris with 21 samples.

Results

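By the line names of the deposited value table, the 150 array spots described here differed between dog kidney cells made to overexpress different transcription factors. They carried more RNA signal, relative to control cells, with E47, Snail2, Twist1 or Twist2 than with Snail1 or Zeb1. They are 150 of the 30183 non-control spots that were well above background in either dye on at least 3 of 21 arrays, out of 42034 non-control spots in all. The deposited value table, which has 1 column for each array, chose them. Its log10 ratios were put on the log2 scale, and the 3 columns of each line were averaged. A spot's score was the lowest mean among E47, Snail2, Twist1 and Twist2 minus the higher of the Snail1 and Zeb1 means, and the 150 highest scores were kept. The values of these 6 lines are therefore a description and carry no test. Zeb2 was the only line whose columns the rule did not use. The scanner files name the arrays otherwise. In them the first and second arrays recorded for Snail1 had median log2 ratios of 3.11 and 3.05 over 146 of the spots.

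The cells are MDCK-II, an established epithelial line from the kidney of a dog. Each of 7 lines overexpressed a single transcription factor: E47, Snail1, Snail2, Twist1, Twist2, Zeb1 or Zeb2. Control cells carried the empty pLKO vector. On each two-colour Agilent array the RNA of 1 line was labelled with Cy5 and control RNA with Cy3, so that every value is a ratio of line over control, and each line had 3 arrays. All cells were of the same parent line, and clones were isolated after growth in G418 or puromycin. The arrays are labelled biological replicates without saying how many clones or cultures stand behind a line. The p-values thus measure only the spread between arrays of the same line, pooled over the lines of a fit, and that spread may be technical. The promoter that drove the factors was not stated. The labels' extraction text mentions tumours and a pooled Cy3 sample in place of the empty-vector control, and the word control for Cy3 follows that channel's source label.

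E47 and the Twist proteins are basic helix-loop-helix transcription factors, the Snail proteins are zinc-finger repressors, and the Zeb proteins combine zinc fingers with a homeodomain-like region. All bind E-box motifs in DNA and are known for repressing the E-cadherin gene and driving the epithelial to mesenchymal transition, in which cells give up their junctions and become motile. In MDCK cells, which form a polarised epithelium in culture, such a transition turns compact islands of cells into scattered spindle-shaped cells.

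Both the naming of the spots and the assignment of the arrays bear on everything that follows. First, the scanner software laid the grid of array design 15067 over slides of design 21193 in 21 of 21 files, so the names printed beside the spots are not those of the DNA on the slides. A spot is therefore given by its grid ID and, for a few, by its row and column among 532 rows and 85 columns; no gene is named, and neither the overexpressed genes nor markers of kidney epithelium could be looked up to check the labels. Second, the value table and the scanner files disagree on which array belongs to which line. Of the 21 columns, 15 held the log ratios of a scanner file within a tolerance of 1e-04, but in 0 of them was it the file recorded for that sample. The file belonged to the same line in 6 and to another line in 9. The other 6 columns, all of Snail1, the second and the third of Zeb2 and the third of Twist2, equalled no file, and their scale and direction were taken to be those of the rest. The line names used for columns are those of the value table, and scanner files are always called recorded arrays.

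In the value table the 150 spots were high in E47, Snail2, Twist1 and Twist2 to a similar degree. The medians over the spots of the log2 ratio of line over control were 3.01 in E47, 2.78 in Snail2, 2.60 in Twist1 and 3.07 in Twist2, where the medians over all 30183 spots were 0.04, 0.00, -0.16 and 0.00. The individual spots ran from 1.95 to 6.12 in E47, from 1.45 to 5.71 in Snail2, from 0.89 to 5.56 in Twist1 and from 1.29 to 6.31 in Twist2. Column by column, the medians over the spots were 3.16, 2.97 and 2.88 in E47, 2.46, 2.80 and 3.04 in Snail2, 2.56, 2.67 and 2.47 in Twist1, and 3.23, 2.95 and 3.0 in Twist2. The 12 columns thus lay close together. In each of them 143 to 150 of the 150 spots had a log2 ratio of 1 or more, which is at least 2-fold above control. Of all filtered spots 16.2% to 28.4% had such a ratio. The median standard deviation of a spot over the 3 columns of its line was 0.21 in E47, 0.32 in Snail2, 0.41 in Twist1 and 0.26 in Twist2.

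Snail1 and Zeb1 sat near control at the same spots. The median log2 ratio was -0.33 in Snail1 and -0.43 in Zeb1, with 41 and 33 of the 150 spots above 0 and 109 and 114 below. In single columns the medians were -0.57, -0.23 and -0.14 in Snail1 and -0.36, -0.67 and -0.23 in Zeb1. In each of these 6 columns 3 to 9 of the 150 spots reached a log2 ratio of 1, against 6.89% to 9.02% of all filtered spots. Snail1 had the higher mean of these lines at 93 spots and Zeb1 at 57. At 149 of the 150 spots every one of the 12 columns of E47, Snail2, Twist1 and Twist2 was above every one of the 6 columns of Snail1 and Zeb1, a separation that 11.8% of all filtered spots also showed and that the choice of the spots largely fixes. The exception was A_11_P0000012717, at -1.27 in the second E47 column and at most 0 in Snail1 and Zeb1.

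**Figure D1:**
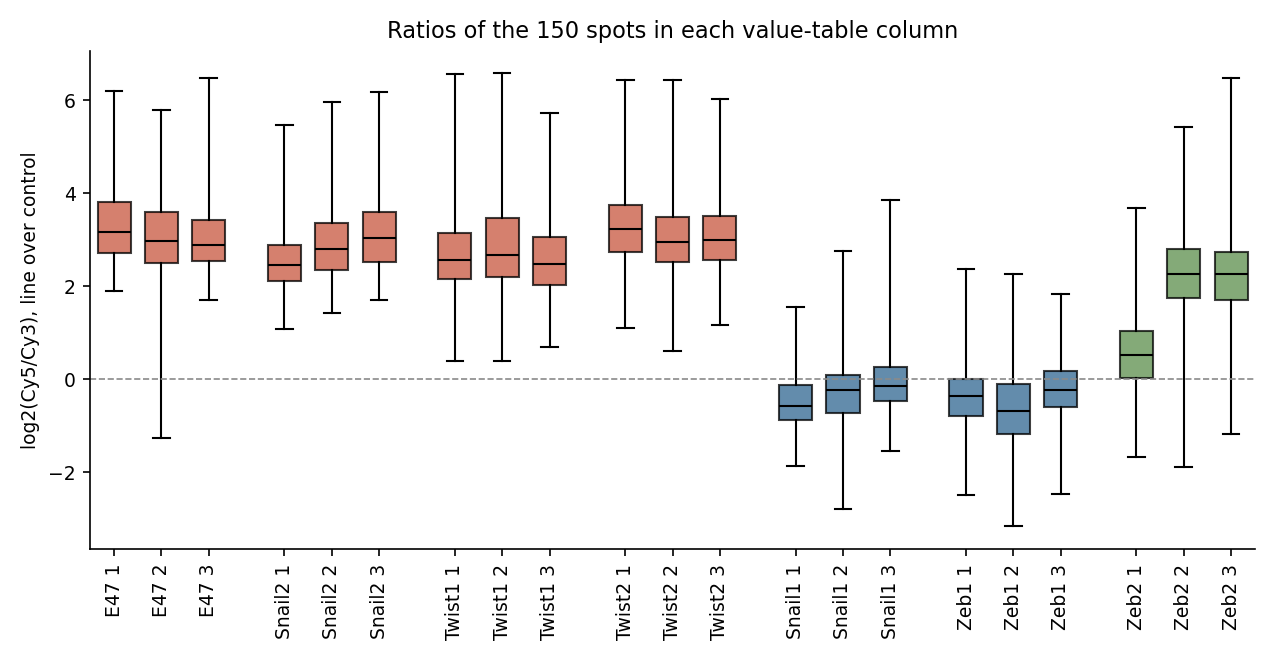
Boxes show the log2 ratio of line over control at the 150 spots in each of the 21 value-table columns (box, quartiles and median; whiskers, the lowest and highest spot), grouped by line and coloured by set. The 12 columns of E47, Snail2, Twist1 and Twist2 have medians of 2.46 to 3.23, the 6 of Snail1 and Zeb1 lie below 0, and the first Zeb2 column, at 0.52, lies apart from the other two at 2.27.

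A limma fit over all 21 columns called a spot where its line mean had a Benjamini-Hochberg adjusted p under 0.05 and lay at least 2-fold from control. It called 150 of the 150 spots higher in E47, 150 in Snail2, 149 in Twist1 and 150 in Twist2, beside 25.9%, 22.9%, 15.9% and 23.4% of all filtered spots, and it called 0 lower in each of these lines, beside 23.9%, 23%, 21% and 25%. It called 6 spots higher and 11 lower in Snail1, beside 6.28% and 4.62% of all spots, and 3 higher and 21 lower in Zeb1, beside 5.16% and 5.1%. The rule chose the spots on these contrasts, so nothing is read from the counts.

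Scores, which are differences between line means in log2 units, ran from 4.26 down to 2.35 with a median of 2.56. The median score of all filtered spots was -0.75, and 7571 of them, 25.1%, had a score above 0. The line that set the score was Twist1 at 74 spots, Snail2 at 44, E47 at 24 and Twist2 at 8. The line with the highest mean was Twist2 at 64 spots, E47 at 58, Snail2 at 15 and Twist1 at 13. The 4 means lay between 0.14 and 2.75 log2 units apart, with a median range of 0.80.

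The highest score belonged to A_11_P000004281, at row 31 and column 6 of the grid. Its log2 ratios were 3.99, 4.43 and 4.08 in E47, 4.72, 4.60 and 5.12 in Snail2, 2.99, 4.86 and 4.36 in Twist1, and 4.10, 5.11 and 5.17 in Twist2. In Snail1 they were -0.44, -0.56 and 0.14, and in Zeb1 0.49, -1.05 and 0.00. The lowest of the 12 high values thus lay far above the highest of the 6 others. In Zeb2 the values were 1.56, 0.66 and 1.53, between both sets in every column.

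The second spot, A_11_P0000027612 at row 156 and column 7, was as far apart but sat lower. It had means of 2.40 ± 0.13 (SD, n = 3) in E47, 3.47 ± 0.32 in Snail2, 2.10 ± 1.09 in Twist1 and 2.67 ± 0.48 in Twist2. Its values were below control in every column of Snail1, at -1.64, -2.78 and -1.26, and of Zeb1, at -2.50, -2.78 and -2.47. Zeb2 went with these lines there, at -0.43, -1.89 and -0.78.

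The third, A_11_P0000033351 at row 120 and column 20, was raised almost equally in the high lines. Its means were 4.23 ± 0.31 in E47, 4.27 ± 0.25 in Snail2, 4.39 ± 0.30 in Twist1 and 4.35 ± 1.14 in Twist2, a range of 0.16. Its Snail1 and Zeb1 means were 0.40 ± 0.17 and 0.23 ± 0.32. In Zeb2 it stood at 1.06 in the first column and at 3.65 and 3.76 in the other two, which is the order that most of the 150 spots showed.

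The rest of the 8 highest scores fell to A_11_P0000033319 with 3.71, A_11_P000005937 and A_11_P000002457 with 3.52 each, A_11_P0000041700 with 3.47 and A_11_P000001689 with 3.44. A_11_P000001689 reached the highest single-line mean of the 150 spots, 6.31 ± 0.24 in Twist2. Its Snail1 values were -0.92, 0.69 and 0.00, and its Zeb1 values 0.73, 0.87 and 0.71. The largest E47 mean, 6.12 ± 0.39, was at A_11_P000003898, which also had the highest Snail1 and Zeb1 means of all, 2.73 ± 1.15 and 1.66 ± 1.15, so that its means were above control in every line and higher still in the 4 high ones.

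**Figure D2:**
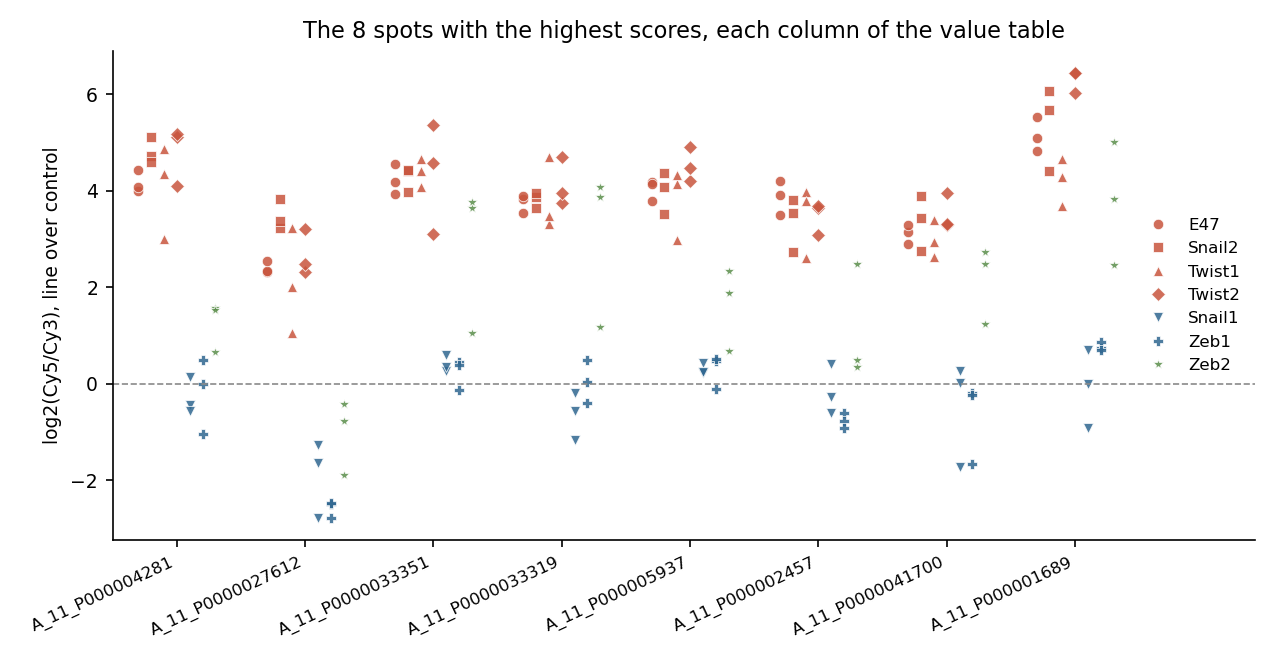
Points give the log2 ratio of line over control in each of the 21 value-table columns at the 8 spots with the highest scores, with a symbol for each line and a colour for each set. At all 8 the 12 values of E47, Snail2, Twist1 and Twist2 lie above the 6 values of Snail1 and Zeb1. The 3 Zeb2 values lie below control at A_11_P0000027612. Some pass the lowest of the 12 at A_11_P0000033351, A_11_P0000033319, A_11_P0000041700 and A_11_P000001689.

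The threshold fell in a dense stretch of scores. The last 3 spots taken, A_11_P0000027428, A_11_P000003365 and A_11_P0000040383, had scores of 2.36, 2.36 and 2.35. The first 3 left out, A_11_P00000661, A_11_P000003663 and A_11_P0000029304, had 2.35, 2.35 and 2.34. A_11_P0000040383 was also the spot with the lowest level in the high lines, with means of 2.01, 1.45, 0.89 and 1.29 in E47, Snail2, Twist1 and Twist2. It passed because Snail1 and Zeb1 were below control there, at -1.47 and -1.57. A_11_P0000034905 and A_11_P0000012770 came next in this respect, with Twist1 means of 1.34 and 1.36.

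The widest spread among the high lines was at A_11_P0000012717, with 5.02 ± 0.94 in Snail2 against 2.28 ± 3.09 in E47, where the second column was below control. A_11_P0000031024 was higher in E47, at 5.36, than in Twist2, at 2.69. A_11_P0000041647 had 5.71 in Snail2 and 3.24 in Twist1, and its 3 Zeb1 values were exactly 0. The narrowest spreads were at A_11_P0000019961, with means of 2.84, 2.77, 2.81 and 2.91 in E47, Snail2, Twist1 and Twist2, and at A_11_P0000019986, with 2.59, 2.41, 2.53 and 2.59.

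At the 150 spots exact zeros occurred mainly among the low columns, which the choice of the spots largely fixes. At most 3 of the 150 spots were exactly 0 in any Snail1 column, and 12, 6 and 6 in the Zeb1 columns, with 14 spots holding at least 1 such value. Of all filtered spots 2.61% to 2.7% were exactly 0 in the Snail1 columns and 3.7% to 5.83% in those of Zeb1. In the columns of E47, Snail2, Twist1 and Twist2 the share was 1.62% to 6.75%. Over all equal columns, 87.5% of exact zeros belonged to spots not well above background in either dye, so an exact 0 in Zeb1 gives no measured level there.

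Zeb2 fell between both sets of lines, and much nearer the high one in its second and the third columns than in its first. The median log2 ratio over the 150 spots was 0.52 in the first column and 2.27 in each of the other two. A log2 ratio of 1 was reached by 40 spots in the first column, 135 in the second and 137 in the third. Of all filtered spots 9.5%, 19.5% and 20.7% reached it. Values of 0 or below were held by 36, 5 and 6 of the 150 spots. Over all filtered spots the values of the first column were also less spread, with a standard deviation of 0.87 against 1.30 and 1.41. The same measure was 0.80 to 0.93 in the columns of Snail1 and Zeb1 and 1.40 to 1.75 in those of E47, Snail2, Twist1 and Twist2. Ratios were thus smaller over the whole array in the low columns, and the first Zeb2 column lay in their range. The line means had a median of 1.61, against -0.04 over all filtered spots, and ran from -1.03 to 4.67, with 147 above 0 and 3 below. The median standard deviation over the 3 columns was 1.06, against 0.47 over all filtered spots, with the first column apart from the other two.

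**Figure D3:**
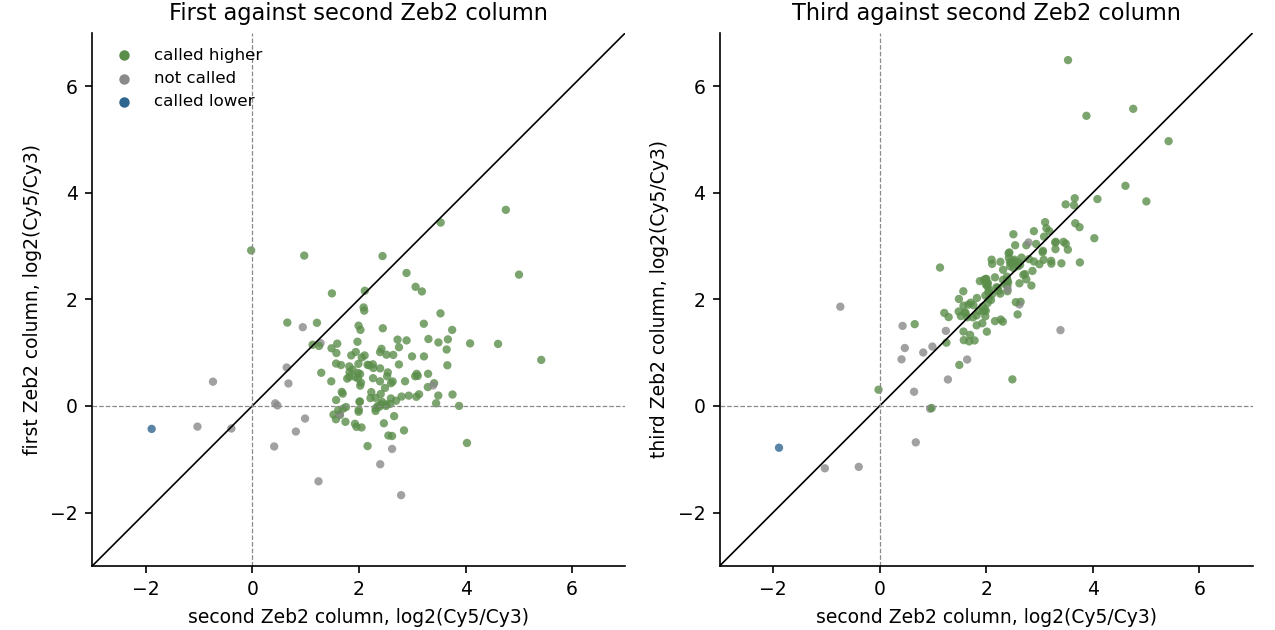
Each point is 1 of the 150 spots, with its log2 ratio in the second Zeb2 column on the horizontal axis and in the first (left panel) or the third (right panel) on the vertical axis. Colour gives the limma call over the 3 columns and the line marks equal values: the first column falls below it at most spots, while the third stays along it.

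Expressed as a share of the way from the higher of Snail1 and Zeb1 (0%) to the lowest of the 4 high lines (100%), the Zeb2 mean lay at a median of 70.7%, with quartiles of 60.7% and 79.7%. It was between both sets at 143 spots, above the lowest high line at 6 and below the higher low line at 1. By column the median place was 28.9% in the first, 93.1% in the second and 92.1% in the third. The second and the third columns reached past the lowest high line at 59 spots each, the first at 1. The median difference between the mean of the second and the third columns and the first was 1.71 at these spots and -0.09 over all filtered spots. Both later columns exceeded the first at 134 of 150 spots, where 38.9% of all filtered spots did so. The second and the third differed from each other by a median of 0.29.

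The first Zeb2 column equals the array recorded as the first of Zeb1, and the first Zeb1 column equals the array recorded as the first of Zeb2, so for these arrays both sources give opposite lines. They lie on the same slide as the arrays that equal the other Zeb1 columns. The slide of the other two is not known, since they equal no file. Slide and line cannot be told apart here.

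Tested against control, Zeb2 was higher at most of these spots. The limma fit over all 21 columns called 131 of the 150 spots higher and 1 lower, against 14.7% and 15.6% of all 30183 spots. The 131 had mean log2 ratios of 1.00 to 4.67 with a median of 1.72, and the median standard error over the 150 spots was 0.31. All 3 Zeb2 columns were above 0 at 104 of the 131. All 3 were at or above a log2 ratio of 1 at 34 of the 150 spots. Over all filtered spots the Zeb2 means correlated with those of E47, Snail2, Twist1 and Twist2 at 0.75, 0.75, 0.80 and 0.81. With Snail1 and Zeb1 the correlations were 0.46 and 0.50. The likeness of Zeb2 to the high lines, in correlation, was thus not particular to these spots. Over the 150 spots alone, which were chosen on the other lines, that order was not kept. There the correlations were 0.54, 0.49, 0.66 and 0.61 with E47, Snail2, Twist1 and Twist2, and 0.65 and 0.67 with Snail1 and Zeb1. The part of this likeness in the counts was not tested. Zeb2 shares its control RNA with the lines that chose the spots, and control signal was dim at many of them: Cy3 was not well above background at 52 of 146 spots on the 1 array that equals a Zeb2 column, which is 35.6% against 20.7% of all filtered spots. The part of the control signal in these counts was not tested. All lines were labelled in Cy5, so dye and line cannot be told apart.

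The single columns weigh on these counts. Without the first column 135 spots were called higher and 2 lower, against 19.2% and 21.6% of all spots. Without the second, 106 were called higher and 0 lower, against 11.8% and 12.1%. Without the third, 106 were higher and 1 lower, against 10.9% and 9.35%. With a spread estimated from the 3 Zeb2 columns alone, limma called 0 spots of the 150, though 88 of them, 58.7%, had an unadjusted p under 0.05, against 39% of all spots. The counts above thus rest on a spread shared with the other lines. Among the 82 spots well above background on all 21 arrays, 73 were called higher, against 14.3% of the spots of that kind.

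The highest Zeb2 means were at A_11_P000003898, with 3.68, 4.76 and 5.57 (mean 4.67 ± 0.95, adjusted p = 1.146e-06 by limma), and at A_11_P0000017944, with 3.44, 3.53 and 6.49 (mean 4.49 ± 1.73, adjusted p = 7.985e-06). A_11_P000001689 followed with 2.46, 5.00 and 3.84, and A_11_P0000021714 with 0.86, 5.42 and 4.97. At the first pair of spots all 3 ratios were far above 0. Cy3 was not well above background at either on the 1 array that equals a Zeb2 column, so the size of that ratio depends on a dim control signal. The same held at A_11_P000001689, A_11_P0000021714, A_11_P000004281, A_11_P0000033351 and A_11_P0000033319. At A_11_P0000021714 the first column was well below the others. The top-scoring A_11_P000004281 was called as well, at 1.25 ± 0.51 (adjusted p = 0.003615 by limma), as were A_11_P0000033351 at 2.82 ± 1.53 (adjusted p = 3.245e-05) and A_11_P0000033319 at 3.05 ± 1.63 (adjusted p = 1.529e-05).

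Of the 19 spots not called higher, 14 missed the adjusted p, 4 passed it but lay under 2-fold from control, and 1 was called lower. Among the 4, A_11_P0000038349 lay below control. The spot called lower, A_11_P0000027612, had a Zeb2 mean of -1.03 ± 0.76 with all 3 columns below 0 (adjusted p = 0.01686 by limma). Neither dye was well above background there on the 1 array that equals a Zeb2 column. A_11_P0000038349 behaved alike over the lines. It had means of 2.57, 3.19, 1.87 and 2.14 in E47, Snail2, Twist1 and Twist2 and of -1.48 and -2.49 in Snail1 and Zeb1, and Zeb2 values of -0.39, -1.03 and -1.17 (adjusted p = 0.01988, under 2-fold). These spots differed by a median of 0.30 over the 21 columns and by at most 1.58. A_11_P0000021503 also lay below control in all 3 Zeb2 columns, at -0.42, -0.39 and -1.14 (adjusted p = 0.06666 by limma). A_11_P0000038754 had the fourth lowest Zeb2 mean, 0.14, with columns of 0.42, 0.68 and -0.68.

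At other spots that missed the call the columns lay far apart. A_11_P000003365 had -1.67 in the first Zeb2 column and 2.79 and 3.07 in the other two (adjusted p = 0.0787 by limma). A_11_P0000012717 had 0.38, 3.39 and 1.42 (adjusted p = 0.06106), and its E47 columns, with a standard deviation of 3.09, enter the same spread. The reverse order was seen at A_11_P0000031024, called higher at 1.07 ± 1.61, with 2.92 in the first column and -0.02 and 0.30 in the others. Without the first column, 7 of the 19 were called higher.

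The spots also sorted by what Snail1 and Zeb1 did. Neither of these lines was called in either direction at 120 spots, and Zeb2 was called higher at 110 of them, with a median of 1.72. Zeb1 alone was called lower at 13 spots, of which 10 were called higher in Zeb2, with a median of 1.29. Snail1 alone was lower at 3, of which 2 were called higher in Zeb2. Both were lower at 8 spots, and there Zeb2 was called higher at 3 and lower at 1, with a median of 0.55. At the 6 spots called higher in Snail1 or Zeb1, Zeb2 was called higher at 6, with a median of 2.88. Of all filtered spots, whatever their class, 14.7% were called higher in Zeb2 and 15.6% lower, and shares by class were not counted. Zeb2 means correlated with those of Snail1 and Zeb1 at 0.46 and 0.50 over all filtered spots, so such sorting need not be particular to the 150. The classes rest on values that chose the spots. The difference between these classes was not tested.

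The rule turned round, for spots higher in Snail1 and Zeb1 than in the other 4 lines, gives a mirror list of 150. There the medians were -4.00 in E47, -3.85 in Snail2, -3.29 in Twist1 and -4.16 in Twist2, with 0.13 in Snail1 and 0.07 in Zeb1. The spots of that list were thus reduced in the 4 lines, and by more than the spots described here were raised. Zeb2 had a median of -2.14 there, and by column of -0.35, -2.93 and -3.12, so its first column was again the one near control. That difference in size was not tested.

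In the scanner files the same spots divided the arrays sharply. For 4 of the 150 spots the value table holds the measurement of another spot with the same grid name, so files are described over the other 146. The median log2 ratio of the processed signals, Cy5 over Cy3, was 2.46 to 3.25 in 15 files and -0.69 to 0.53 in 6. At least 139 of the 146 spots reached a log2 ratio of 1 in each of the 15, against 16.3% to 28.6% of all filtered spots. In each of the 6, 3 to 39 did so, against 6.96% to 11.2%. No file lay between 0.53 and 2.46. The 6 low files are recorded for Zeb1 (all 3), the first and the third arrays of Zeb2 and the third of Snail1. Every file recorded for E47, Snail2, Twist1 or Twist2 was high, although 9 of the equal columns carry another line's name, since the exchanges ran within the high lines or within Zeb1 and Zeb2. Of the 21 files, 14 equal a column that chose the spots.

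Of the 6 files that equal no column, 4 were high and 2 low at these spots. The recorded arrays of Snail1 had medians of 3.11, 3.05 and -0.59. The second and the third recorded arrays of Zeb2 had 2.87 and -0.13, and the third recorded array of Twist1 had 3.03. The first and second Snail1 arrays, on 1 slide, thus looked like the high columns, and the third, on another slide, did not. In the value table all 3 columns named Snail1 were low, and the second and the third named Zeb2 were at 2.27.

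**Figure D4:**
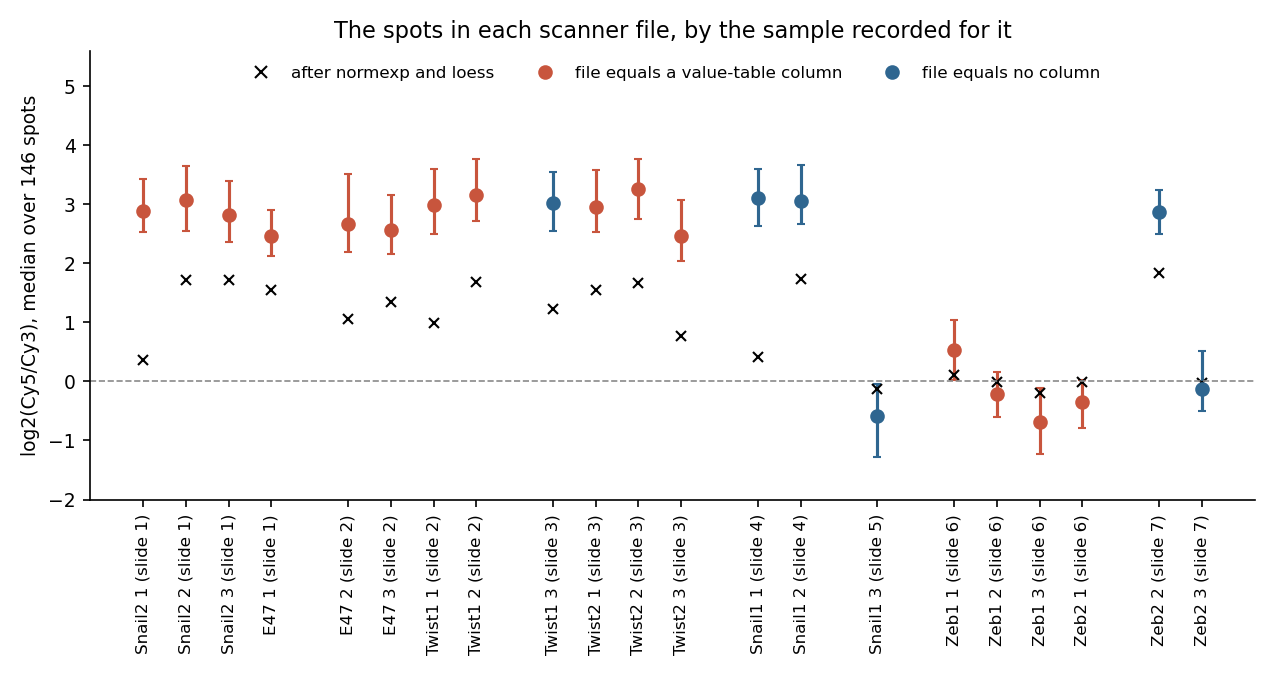
Points give the median, and bars the quartiles, over 146 of the spots of the log2 ratio of processed signals, Cy5 over Cy3, in each of the 21 recorded arrays by slide, with arrays that equal no value-table column in blue and crosses for the median after normexp and loess. The first and second recorded Snail1 arrays lie at 3.11 and 3.05 and the third at -0.59.

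Single spots followed the same division. At A_11_P0000033351 the log2 ratios were 5.13, 4.90 and -0.24 in the recorded Snail1 arrays and 4.76 and 0.70 in the second and the third recorded Zeb2 arrays. At A_11_P0000033319 they were 4.83, 3.90 and -0.26, and 3.65 and 0.06. A_11_P000001689 was an exception, at -0.12, 0.57 and -0.61 in Snail1 and -0.71 and 1.06 in Zeb2, while the third recorded Twist1 array gave 5.68. The pattern of 1 or more in the first and second Snail1 arrays and the second Zeb2 array, and under 1 in the third Snail1 and the third Zeb2 arrays, was held by 120 of the 146 spots, 82.2%, against 17.3% of all filtered spots. This pattern was chosen after its values were seen. The third Snail1 array was below both others at 142 of the 146.

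Fitted on 5 files that the rule did not use, with normexp background correction and loess, limma called 0 of the 146 spots higher and 0 lower in the recorded Snail1 arrays, against 0% of all spots; 1 of the 146 and 2180 of all spots had an unadjusted p under 0.05. For the second and the third recorded Zeb2 arrays it again called 0 higher and 0 lower, against 0% of all, with 6 and 3079 at an unadjusted p under 0.05. The smallest adjusted p among the 146 spots was 0.68 for Snail1 and 0.472 for Zeb2. With the replicate number as a block, which leaves 1 residual degree of freedom, 23 of the 146 were called higher in Snail1, against 2% of all spots, and 0 in Zeb2. After loess the 5 medians over the spots were 0.41, 1.74 and -0.13 for Snail1 and 1.84 and -0.03 for Zeb2. Of the 5, the first Snail1 array moved most, from 3.11 in the processed signals and 1.89 without background correction.

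Beside the ratios, the brightness of each dye was compared. Ranked among all filtered spots of an array by intensity, the 146 spots had median Cy3 percentiles of 28.1 to 47.6 in the 15 high files and of 25.6 to 33.0 in the 6 low files. Their median Cy5 percentiles were 63.1 to 71.9 in the high files and 16.7 to 35.3 in the low ones. The Cy5 ranges did not overlap and the Cy3 ranges did. Control cells thus gave a signal below the middle of the array at most of these spots. Cy5 was well above background at 125 to 146 of the 146 spots in the high files and at 57 to 135 in the low ones. Of all filtered spots 47.8% to 91.3% and 78.7% to 91.5% were so. Cy3 was well above background at 82 to 133 of the 146 spots in the high files and at 71 to 132 in the low ones. Of all filtered spots 73.6% to 87.7% and 68.9% to 91.8% were so. The files were parted by their ratios at these same spots, so the Cy5 contrast describes that division and adds no support to it.

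**Figure D5:**
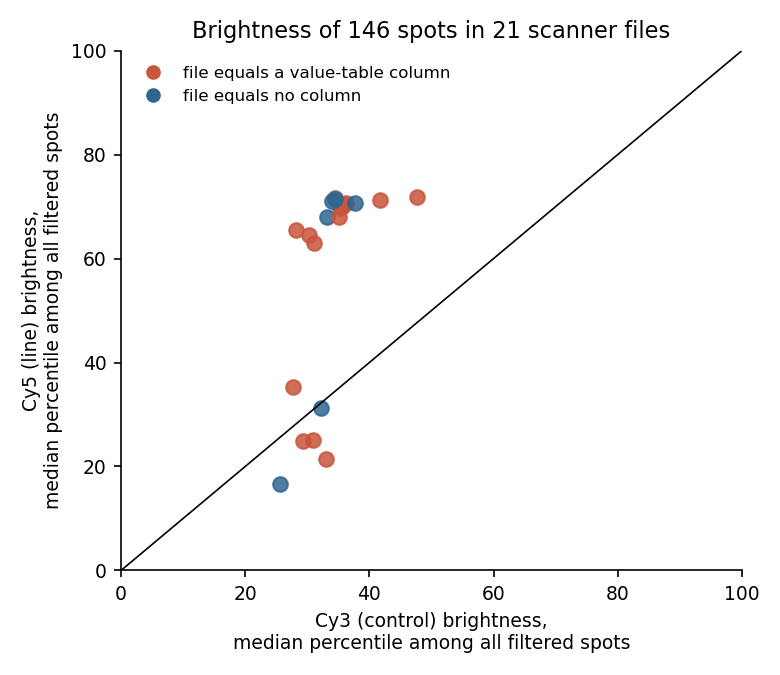
Each point is 1 of the 21 recorded arrays, placed by the median percentile of the 146 spots among all filtered spots in the control dye Cy3 (horizontal) and in the line dye Cy5 (vertical), with arrays that equal no column in blue and a line at equal percentiles. Cy5 lies at 63.1 to 71.9 in the 15 high files and at 16.7 to 35.3 in the 6 low ones, while Cy3 stays at 25.6 to 47.6 throughout.

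Dim control signal limits some of the ratios to bounds. Cy3 was not well above background on any of the equal arrays of the line at 25 of the 146 spots for E47, 18 for Snail2, 43 for Twist1, 42 for Twist2, which has 2 such arrays, and 35 for Zeb1. These are 17.1%, 12.3%, 29.5%, 28.8% and 24% of the spots, against 16.1%, 15%, 18.8%, 22.9% and 16.8% of all filtered spots. Cy5 was dim on every equal Zeb1 array at 35 spots, or 24%, against 11.8% of all. At most 2 of the spots were saturated in Cy5 on any array. A bound sets the mean of the bright channel against the mean, over arrays, of the lowest signal well above background or the spot's own signal where higher. A_11_P000004281 was in this way at least 1.52-fold above control in E47, at least 3.84-fold in Snail2 and at least 1.69-fold in Twist1. A_11_P000001689 was at least 1.99-fold above in E47, 4.25-fold in Snail2 and 1.77-fold in Twist1. For A_11_P000003898 the bound was at least 2.11-fold in E47 and 2.58-fold in Twist1, and for A_11_P0000033351 at least 3.10-fold in Twist1. The larger ratios of these spots depend on a control signal that was not well above background. A_11_P0000038349 had Cy3 well above background on all 3 equal arrays each of E47, Snail2 and Twist1, on both of Twist2 and on all 3 of Zeb1. A_11_P0000027612 had it on 2 of 3 E47 and 3 of 3 Snail2 arrays, but on 1 of 3 Twist1 and 0 of 2 Twist2 arrays. Its Cy5 was well above background on 0 of the 3 equal Zeb1 arrays.

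The spots were spread over the array. Of the 150, 39 lay in the upper left part of the array, cut through its middle row and column, 40 in the upper right, 46 in the lower left and 25 in the lower right, which is 26.0%, 26.7%, 30.7% and 16.7% against 24.5%, 25%, 24.9% and 25.6% of the filtered spots. Within 10 rows or columns of an edge lay 34, or 22.7%, against 25.3%. No spot of the list touched another (0 pairs). A grid name was shared with another spot by 10 of the 150. Signal well above background was found on all 21 arrays for 82 of the 150, and on at least 9 arrays for each.

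Membership depended on how the columns were put on a common scale. With each column divided by its median absolute value, 42 of the 150 spots stayed in the list of the same length. With medians in place of means of the 3 columns, 114 stayed, and leaving out any 1 of the 18 columns used kept 128 to 148. Without the filter on signal 149 stayed.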

How the data were processed

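The spots and every list were chosen with earlier results of these data known. Each scanner file was made with Agilent Feature Extraction 10.7.1.1, per the file headers, or version 10.0, per the submitters' processing notes. Intensity values were read, per the file headers, from the median spot and local background signals and from the processed signals of Cy5 and Cy3, the latter background-subtracted and dye-normalised by that software. The deposited LogRatio column and value table hold the log10 ratio of Cy5 over Cy3; any further centring of the table was not stated.

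Table values were multiplied to log2. Lines were mapped by column title. The value-table fit (limma 3.58.1, R 4.3.3) had 7 line means over 21 columns and 14 residual degrees of freedom; the control's own spread is left out, and a line mean was tested against 0. Calls needed a Benjamini-Hochberg adjusted p under 0.05 and at least 2-fold. The 1417 control spots were left out. Of 42034 other spots, 30183 passed the filter. Recorded arrays were fitted after normexp (offset 50) and loess. Named spots are the 8 highest scores, the 3 last inside and 3 first outside the threshold, the 4 highest and 4 lowest Zeb2 means, the 3 lowest levels in the high lines, and the 3 widest and 3 narrowest ranges of their means. The fit steps were run on simulated data whose spread was that of the value table. That spread is not the one of the recorded arrays, so the fit on those was not checked in this way. The number of arrays limits the precision. The labels name no swap of dyes.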

Additional observations from a re-analysis of the deposited data

How the results depend on the processing

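The 131 spots called higher in Zeb2 became 0 with only the Zeb2 columns in the fit (50 higher and 49 lower among all spots, smallest adjusted p of the 150 0.0509), 73 of 82 tested with spots above background on all arrays, and 0 with the recorded arrays under normexp and loess (72 higher and 18 lower among all). Leaving out 1 Zeb2 column gave 106 to 135, and without any column of another line 131 to 132. Scaled columns gave 114 (14% of all spots), array weights 135 (19.2%), no minimum fold 134 (26.2%), centred columns 133 (15.1%) and no filter 129 (10.6%). The list of 150 kept 82 spots with the filter on all arrays and 42 with scaled columns, and the shorter list holds 75. The median place of Zeb2, 70.7%, was 59.7% to 91.8% without 1 Zeb2 column and 85.9% with scaled columns. Of 27 named spots 1 turned direction: the Zeb2 mean of A_11_P0000027612 was 0.0377 (adjusted p = 0.9483 by limma) with the recorded arrays.

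A replicate block gave 132 spots higher in Zeb2 and, for the recorded Snail1 arrays with 1 residual degree of freedom, 23 of 146 in place of 0, against 2% of all spots (603 higher, 1401 lower). Unadjusted p under 0.05 then came to 128 of 146 spots for Snail1 in place of 1, against 30.3% of all spots in place of 7.22%. For Zeb2 it came to 129 in place of 6, against 31.6% of all spots in place of 10.2%, and calls stayed at 0. Among columns, deviations of same-numbered ones had a mean correlation across spots of -0.0048 (-0.248 to 0.286), and others 0.0015 (-0.343 to 0.329). That check does not cover the recorded arrays. There, the medians over the spots after loess were 1.74 and 1.84 in the second Snail1 and Zeb2 arrays. In the third arrays they were -0.13 and -0.03. Whether the numbers pair the recorded arrays was not tested. The 3 arrays a line and dim Cy3 signals limit precision.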

Other observations

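Over all 42034 non-control spots, 958 differed between the value table and the equal scanner file, and each of the 958 held in all 15 equal columns the value of another spot with the same grid name. Among the 150 spots these were A_11_P0000020395, A_11_P0000033458, A_11_P0000040102 and A_11_P00000232, at places 127, 128, 135 and 143 by score, and all 4 were called higher in Zeb2.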
